A study of Drosophila melanogaster with 3 samples.

Results

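Weak promoter regions are listed regions of CG16779-eGFP chromatin immunoprecipitation that lay at a gene start but scored below the set of reproducible peaks. They were taken from a list that the authors made from 3 pooled libraries and labelled as peaks and background. A listed region is therefore not by itself a site of binding, and the part of background among the regions was not tested. A region was kept when it overlapped no peak of the set thresholded by the irreproducible discovery rate (IDR, a measure of how well replicates rank the same peaks), when its summit lay over 500 bp from every IDR summit, and when that summit lay within 500 bp of an annotated protein-coding start site. Of 30000 pooled regions, 29983 lay on the chromosome arms, 23895 were outside the IDR set by this rule, and 3964 of those were at protein-coding promoters, which is 16.6% (exact 95% binomial interval 16.1 to 17.1). The regions were thus chosen by the pooled score and by position, and both are given below as description.

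The libraries came from whole Drosophila melanogaster prepupae of unknown age, males and females together, of the strain CG16779-MiMIC. In it, an added exon encoding enhanced green fluorescent protein (eGFP) sits within an intron of CG16779, so the gene yields a fusion protein, and an anti-GFP antibody was used for the immunoprecipitation. There was 1 group with 3 biological replicates and no second condition, so all comparisons are between kinds of regions within these libraries. Whole animals mix all tissues, so a region bound in few cells and a region bound weakly in many cells cannot be told apart. Without an analysed control, neither can be told apart from background.

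A promoter is the stretch around a transcription start where general factors and RNA polymerase assemble. Fly promoters carry recurring sequence elements: GA repeats are bound by GAGA factor and by CLAMP, the DNA replication-related element (DRE) is bound by DREF, Motif 1 is bound by M1BP, and the TATA box and the initiator position the polymerase. DRE and Motif 1 are known from broadly expressed housekeeping genes, whereas TATA boxes are known from genes switched on in particular tissues or stages.

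Windows of 100 bases around member summits show what these regions look like, printed 5′ to 3′ on the strand of the nearest gene from the RefSeq sequence of the dm6 assembly. Capitals mark exact matches, on either strand, to any of 16 searched motifs, of which the GA repeat GAGAG with its longer form GAGAGAG, TATCGATA (the DRE), GGTCACAC (the core of Motif 1), TATAAA (the TATA box), TCAGT (an initiator core), CGATA (part of the DRE) and CACACACA are described below. The others were the E-box CACGTG and the related word CAGCTG, a run of A (AAAAAAAA), the CRE word TGACGTCA, the Zelda word CAGGTAG, the GATA word AGATAAG, the CCAAT box and the nuclear receptor word AGGTCA. The first 4 windows belong to high-scoring members just below the IDR set, at trio (chr3L:1007963-1008062, minus strand), CG10211 (chr2L:18517120-18517219, plus strand), sd (chrX:15813343-15813442, plus strand) and CG17839 (chr3L:14804958-14805057, plus strand). None of these windows overlaps an annotated exon.
trio: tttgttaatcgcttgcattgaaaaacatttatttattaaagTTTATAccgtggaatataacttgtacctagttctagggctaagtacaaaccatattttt
CG10211: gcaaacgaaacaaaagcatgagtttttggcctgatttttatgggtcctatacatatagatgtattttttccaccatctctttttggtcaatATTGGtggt
sd: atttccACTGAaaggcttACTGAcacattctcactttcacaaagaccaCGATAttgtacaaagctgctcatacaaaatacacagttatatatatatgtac
CG17839: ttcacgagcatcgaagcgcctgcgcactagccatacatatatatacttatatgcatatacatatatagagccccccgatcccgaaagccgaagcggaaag
Their GC content was 28%, 35%, 34% and 47%, and none of the 4 held GAGAG.

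The next windows were chosen after the motif values were seen, to show the GA repeat and the DRE within members. They are the highest-scoring exon-free windows with GAGAGAG, at dysc (chr3L:13903372-13903471, minus strand), CG2162 (chr3L:3035521-3035620, plus strand) and SNF4Agamma (chr3R:21180577-21180676, plus strand), and with TATCGATA, at pnr (chr3R:16025975-16026074, plus strand) and MEP-1 (chr3L:2631531-2631630, plus strand). SNF4Agamma encodes the gamma subunit of AMP-activated protein kinase, and pnr encodes a GATA-type transcription factor.
dysc: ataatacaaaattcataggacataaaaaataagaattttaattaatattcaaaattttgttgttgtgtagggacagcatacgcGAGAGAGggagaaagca
CG2162: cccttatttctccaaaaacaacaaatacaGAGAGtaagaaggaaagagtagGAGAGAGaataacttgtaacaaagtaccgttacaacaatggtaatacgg
SNF4Agamma: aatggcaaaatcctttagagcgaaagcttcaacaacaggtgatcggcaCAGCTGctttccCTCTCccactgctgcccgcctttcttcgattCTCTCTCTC
pnr: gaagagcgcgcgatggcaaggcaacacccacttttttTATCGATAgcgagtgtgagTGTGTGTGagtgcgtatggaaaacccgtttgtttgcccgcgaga
MEP-1: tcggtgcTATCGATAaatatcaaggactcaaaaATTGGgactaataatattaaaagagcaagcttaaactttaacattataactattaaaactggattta
The pooled scores of these members were 169.5, 168.7, 167, 155 and 102.5 in that order.

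The 2 lowest-scoring members with exon-free windows lay at Nha2 (chr3R:22998554-22998653, minus strand), which encodes a sodium/proton antiporter, and CG5455 (chr3R:26465825-26465924, plus strand). They are shown for contrast with the high-scoring windows.
Nha2: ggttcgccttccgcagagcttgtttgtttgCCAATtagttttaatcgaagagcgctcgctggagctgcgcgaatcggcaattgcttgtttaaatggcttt
CG5455: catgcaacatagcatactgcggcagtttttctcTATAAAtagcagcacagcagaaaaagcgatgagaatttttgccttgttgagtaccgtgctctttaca

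The pooled score, which is the authors' own and was used only to rank regions within a list, ran from 40.93 to 173.7 over the 3964 members, with a median of 76.6 and an interquartile range of 55.1 to 111.8. The IDR set consists of the 4822 highest-scoring pooled regions, and the lowest score among its peaks on the arms was 173.8. The score therefore continued across the boundary without a gap. Just outside on the high side lay IDR promoter peaks at CG1146, Tlk and Atet, each with a score of 173.8, and just inside lay the members at CG6163 (173.7) and red (173.6). On the position rule, the members farthest from a start were E(spl)mgamma-HLH and CG33278 at 500 bp and CG7573 at 499 bp, while Tim17a2, SLC5A11 and CG6225 fell out at 501 bp. The region width was 440 bp in 3963 members, so width carried no information on the signal.

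The highest-ranked weak regions lay at promoters most often. Protein-coding promoters held 32.5% (30.6 to 34.4) of the weak regions ranked 4823 to 7500 and 24.3% (22.5 to 26.1) of those ranked 7501 to 10000. The share was then 19.7% up to rank 15000, 14.4% up to 20000, 10.6% (9.77 to 11.5) up to 25000 and 10.3% (9.48 to 11.2) up to 30000. For reference, windows of 500 bp around the 19275 protein-coding start positions covered 11.2% of the bases on the arms, and 38.9% (37.5 to 40.3) of the 4805 IDR peaks on the arms lay in them. The intervals of the 2 lowest rank classes include the share of bases.

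**Figure D1:**
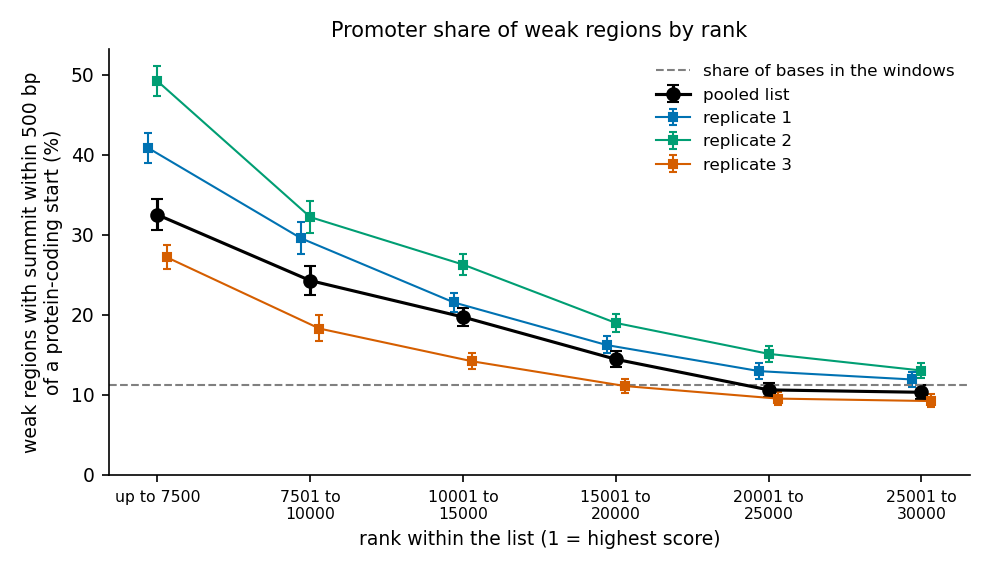
Percentage of weak regions with their summit within 500 bp of a protein-coding start (vertical axis) by rank within a list (horizontal axis), for the pooled list and each replicate's own list. Bars are exact 95% binomial intervals over regions, the dashed line is the 11.2% of bases in the windows, and in all 4 lists the share falls at each step, from 49.2% to 13.0% in replicate 2 and from 27.2% to 9.23% in replicate 3.

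The 3 libraries differed in how many of their own weak regions lay at promoters. When the same rule was applied to each replicate's own list, 19.7% of weak regions in replicate 1, 23.2% in replicate 2 and 13.8% in replicate 3 were at protein-coding promoters (18.9% ± 4.76, SD, n = 3), which is 4688, 5507 and 3430 regions. Replicate 3 was the lowest in every rank class. Each list holds 30000 regions.

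Most weak promoter regions were found again in some but not all libraries. Of the 3964 members, 74.0% were overlapped by a region in the list of replicate 1, 77.0% in replicate 2 and 63.3% in replicate 3. All 3 lists held 1409 members (35.5%, 34.0 to 37.1), 2 lists held 1776, 1 list held 716, and 63 members were in none. For IDR promoter peaks the share in all 3 lists was 79.4% (77.4 to 81.2), and for the 19252 weak regions away from any annotated start it was 28.2% (27.6 to 28.9). The pooled list was made from these same libraries and the rule excludes the highest scores, so these shares describe the members and were not tested.

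The position of the members against other weak regions depended on rank. Between ranks 4823 and 7500, 61.0% of members were in all 3 lists against 78.1% of the weak regions away from starts. Between ranks 25001 and 30000 the order was the other way round, with 9.70% of members against 6.78%. Replicate summits also lay farther from the pooled summit than at strong peaks. The replicate summit was that of the best-ranked overlapping region, which need not be the nearest one. The part of such matches in the distances was not tested. Among members in all 3 lists, the largest distance between a replicate summit and the pooled summit had a median of 202 bp, against 60 bp in IDR promoter peaks and 175 bp in weak regions away from starts. Part of the listing is shared between neighbours: 1284 members (32.4%) overlapped another member, and 981 of the 2932 members listed in replicate 1 were matched to a replicate region that was also matched to another member.

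The X chromosome set replicate 3 apart. Among the 653 members on the X, 84.7% were listed in replicate 1, 87.0% in replicate 2 and 47.5% (43.6 to 51.4) in replicate 3. Among the 3311 members on autosomes the shares were 71.9%, 75.02% and 66.5% (64.8 to 68.1). Listing on the X was thus above the autosomes in replicates 1 and 2 and below them in replicate 3. Weak regions away from starts showed the same order, with 73.4%, 70.5% and 51.2% on the X, and so this was not confined to promoters. IDR promoter peaks on the X were listed at 99.7%, 100% and 70.5%. Of each replicate's own weak promoter regions, 21.0%, 19.5% and 9.33% lay on the X. The labels give pooled sexes for every library, and the part of sex composition or sequencing depth in this difference was not tested.

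**Figure D2:**
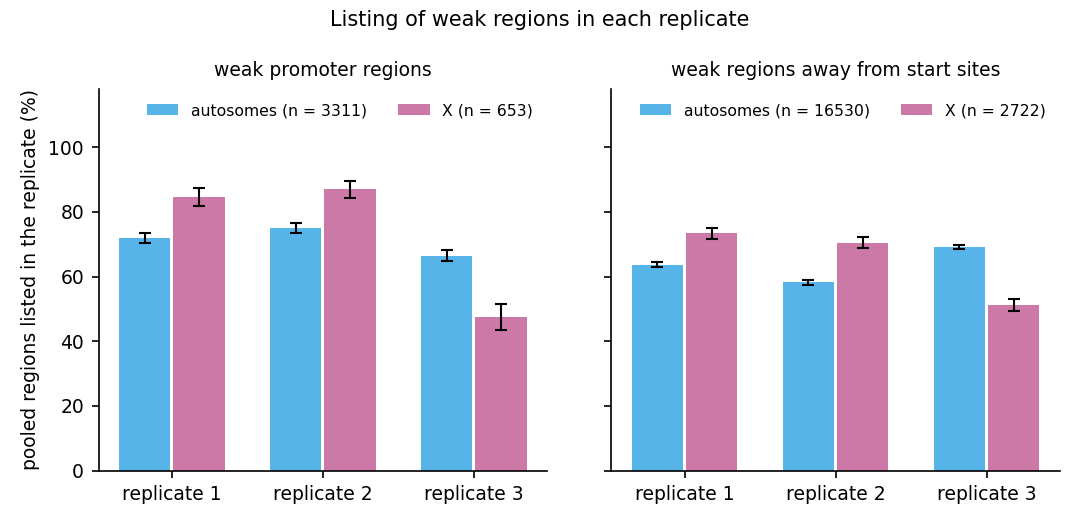
Percentage of pooled regions overlapped by at least 1 bp in the list of each replicate (vertical axis), for weak promoter regions and for weak regions away from start sites, on autosomes and on the X. Bars are exact 95% binomial intervals over regions, and in both panels the X bar is above the autosome bar in replicates 1 and 2 and below it in replicate 3, at 47.5% against 66.5% for weak promoter regions.

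Members sorted by which libraries listed them differed in place as well. The 1067 members listed in replicates 1 and 2 but not in replicate 3 had a median pooled score of 80.9, and 25.4% of them were on the X. Their summits were downstream of the nearest start in 54.2% (51.1 to 57.2) and inside a coding exon in 5.34%. The 393 members listed only in replicate 3 had a median score of 52.5, with 4.58% on the X, 41.2% (36.3 to 46.3) downstream and 22.1% (18.1 to 26.6) inside a coding exon. The 1409 members listed in all 3 had a median score of 103.5, with 42.2% downstream and 3.34% in a coding exon. Members found only in replicate 3 thus scored lowest and lay in coding sequence most often among these 3 groups, and the part of their lower score in this was not tested.

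By arm, protein-coding promoters held 20.1% (18.9 to 21.3) of the weak regions on 2R, 19.0% (17.7 to 20.4) on X, 15.7% on 3R, 15.2% on 2L and 14.2% (13.3 to 15.2) on 3L. The members numbered 905, 653, 973, 676 and 757 on these arms, and 0 of the 2 weak regions on arm 4 were members. The windows around starts covered 12.5% of the bases of 2R, 11.04% of X, 11.3% of 3R, 12.1% of 2L and 10.7% of 3L.

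Within the promoter window, weak promoter summits lay farther downstream than the summits of IDR promoter peaks. The median summit was 25 bp upstream of the nearest start in members and 81.5 bp upstream in the 1870 IDR promoter peaks. Summits lay downstream in 1763 members (44.5%, 42.9 to 46.0) and in 34.2% (32.0 to 36.4) of IDR promoter peaks. In the replicates' own lists the downstream share was 51.6%, 51.2% and 42.8% for weak promoter regions and 37.6%, 38.5% and 33.3% for the regions that overlap IDR peaks at promoters. The difference was 13.9, 12.6 and 9.52 percentage points, higher in 3 of 3 replicates with a mean of 12.03 ± 2.27 (SD, n = 3). The rule that chose the members uses the distance to a start and not the side. The exact sign-flip permutation p was 0.25, the smallest possible with n = 3, so this difference remains a description.

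Closeness to the start differed less than the side. Summits within 100 bp of a start made up 37.8% (36.3 to 39.4) of members and 36.8% (34.6 to 39.0) of IDR promoter peaks, and in the replicates' own lists the weak promoter regions were higher by 2.06, 2.71 and 1.74 percentage points. The largest contrast within a bin lay upstream, where the bin from 200 to 150 bp upstream held 11.3% of IDR promoter summits and 6.05% of member summits. In every downstream bin the order was reversed, for example at 1.82% and 3.81% between 200 and 250 bp.

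**Figure D3:**
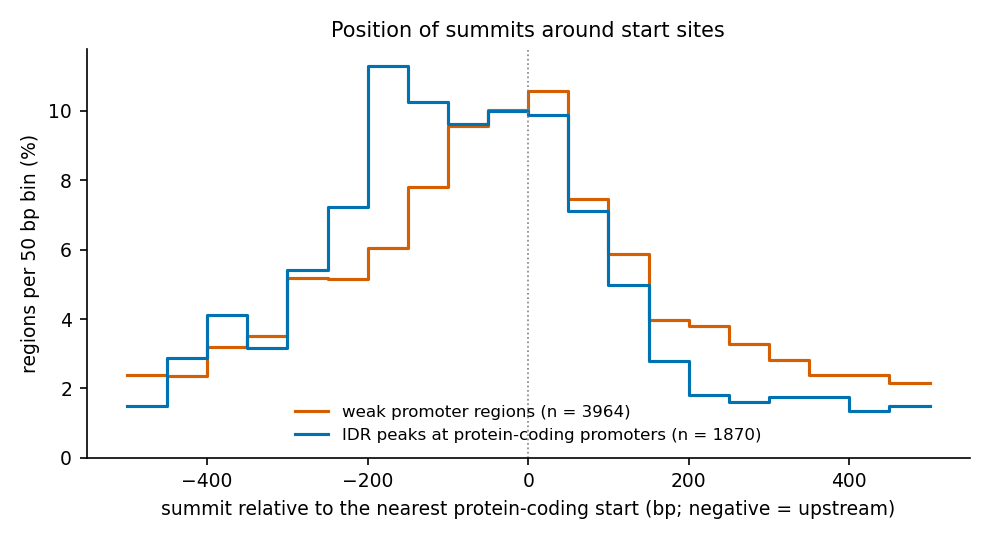
Percentage of regions per 50 bp bin (vertical axis) by the position of the summit relative to the nearest protein-coding start (horizontal axis, bp, negative upstream), for 3964 weak promoter regions and 1870 IDR promoter peaks. The IDR promoter peaks reach 11.3% between 200 and 150 bp upstream, whereas the weak promoter regions reach 10.6% in the first 50 bp downstream of the start and have the longer downstream side.

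The annotation at the summit differed as well. The summit was in a 5′ untranslated region in 31.2% of members, in an intron in 30.0%, between genes in 28.0% and in a coding exon in 8.10% (7.27 to 8.99). In IDR promoter peaks the coding exon share was 2.30% (1.67 to 3.09) and the 5′ untranslated region share 30.1%. Starts of genes on both strands lay within 500 bp of 322 member summits (8.12%, 7.29 to 9.02) and of 14.9% (13.3 to 16.6) of IDR promoter summits. Starts on both strands were thus less frequent near member summits than near IDR promoter summits, a description over regions without a replicate test. Whether such starts pointed away from or towards each other was not checked. The distance from a member to the nearest IDR summit had a median of 7735 bp, against 9844 bp for weak regions away from starts.

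GA repeats were more frequent at weak promoter regions than at weak regions elsewhere and less frequent than at IDR promoter peaks. Within 100 bp of the summit, GAGAG or its reverse complement CTCTC occurred in 1399 members (35.3%, 33.8 to 36.8), in 40.5% (38.3 to 42.8) of IDR promoter peaks and in 25.2% (24.6 to 25.8) of weak regions away from starts. In the replicates' own lists, weak promoter regions held GAGAG in 33.3%, 31.9% and 31.0%, regions at IDR promoter peaks in 41.4%, 41.8% and 41.1%, and weak regions away from starts in 25.6%, 25.03% and 23.9%. The weak promoter regions were between the other two in each of the 3 replicates. The difference to weak regions away from starts was 7.23 ± 0.407 percentage points and that to IDR promoter peaks was -9.36 ± 1.12 (SD, n = 3), each with an exact sign-flip permutation p = 0.25, the smallest possible.

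The GAGAG share varied with rank. The share of members with GAGAG was 40.4% between ranks 4823 and 7500 and 24.0% between ranks 25001 and 30000, where weak regions away from starts had 24.2%. In the lowest rank class the members therefore did not stand above other weak regions in GAGAG. By listing, GAGAG occurred in 39.4% (36.8 to 42.0) of members in all 3 lists, 35.8% (32.9 to 38.8) of those in replicates 1 and 2 without 3, and 27.5% (23.1 to 32.2) of those in replicate 3 alone. The longer GAGAGAG, which contains GAGAG, occurred in 9.54% of members, 13.9% of IDR promoter peaks and 4.04% of weak regions away from starts.

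To take the shift of the summit out of the comparison, the same count was made within 100 bp of the nearest start itself. GAGAG occurred at 36.0% (34.3 to 37.6) of the 3340 distinct starts of members, at 44.6% (42.3 to 47.0) of the 1750 starts of IDR promoter peaks and at 24.97% (24.4 to 25.6) of all 19275 protein-coding starts. TCAGT, an initiator core, occurred at 51.2%, 46.7% and 43.4% of these starts, and CACACACA at 5.93%, 8.57% and 4.00%. The TATA box TATAAA occurred at 21.6% (20.2 to 23.02) of member starts, 15.7% (14.0 to 17.4) of IDR promoter starts and 26.9% (26.3 to 27.6) of all starts. Starts of members thus lay between the other sets for GAGAG and for TATAAA and above both for TCAGT.

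The DRE was less frequent at both sets of starts than at all starts. TATCGATA occurred at 3.44% (2.85 to 4.12) of member starts, 3.89% (3.03 to 4.90) of IDR promoter starts and 6.44% (6.10 to 6.799) of all starts. CGATA, which lies within TATCGATA, occurred at 32.1%, 32.1% and 37.1%. GGTCACAC occurred at 3.65% (3.04 to 4.35), 5.60% (4.57 to 6.78) and 5.68% (5.35 to 6.01), so for this element the member starts alone lay below all starts. Around the summit, TATCGATA occurred in 55 members (1.39%, 1.05 to 1.80) against 1.60% (1.08 to 2.28) of IDR promoter peaks and 0.182% (0.127 to 0.253) of weak regions away from starts. The difference to weak regions away from starts in the replicates' own lists was 2.07, 1.71 and 1.24 percentage points (1.67 ± 0.417, SD, n = 3, exact sign-flip permutation p = 0.25, the smallest possible), higher in 3 of 3. The difference to IDR promoter peaks was 0.929, 0.650 and -0.117 percentage points (exact sign-flip permutation p = 0.5, n = 3). The sign of the latter difference varied between replicates. An exact match is a description of sequence and not a bound site.

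**Figure D4:**
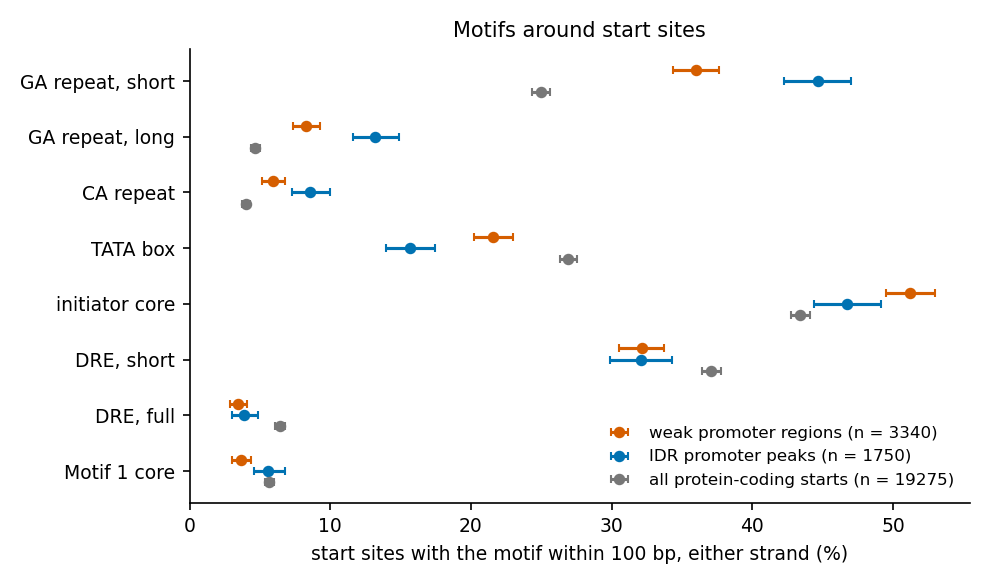
Percentage of start sites with a motif within 100 bp on either strand (horizontal axis) for 8 motifs, at the starts nearest to weak promoter regions, at those nearest to IDR promoter peaks and at all protein-coding starts. Bars are exact 95% binomial intervals over starts, and the short GA repeat (GAGAG in the text) stands at 36.0%, 44.6% and 24.97% while the full DRE stands at 3.44%, 3.89% and 6.44%.

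Base composition differed by where it was measured. The median GC content within 100 bp of the summit was 45.3% in members, 41.8% in IDR promoter peaks and 42.8% in weak regions away from starts. Around the nearest start it was 46.8% for members, 47.3% for IDR promoter peaks and 42.3% for all starts. The part of base composition in the motif shares was not tested.

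The 12 members with the highest pooled scores lay between 172.9 and 173.7, directly below the IDR set. Of these, 8 were listed in all 3 replicates and 4 in replicates 1 and 2 alone. At Glut4EF, which encodes a transcription factor, the summit lay 4 bp downstream of the start, and the ranks were 4516, 9083 and 3020 in replicates 1, 2 and 3. At RpL37-1, a gene for a large ribosomal subunit protein, the summit lay on the start, with ranks of 3158 and 6327 in replicates 1 and 2 and no region in replicate 3. sd, which encodes the TEAD-family partner of Yorkie in the Hippo pathway, had ranks of 4974 and 4355 and was likewise not listed in replicate 3. All 3 genes held members with nearly equal pooled scores but differed in their support from replicate 3.

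The other high-scoring members showed the same mixture. The member at trio, 237 bp upstream of a start, ranked 7624, 6888 and 3634. hppy, a MAP4K-family kinase gene, had a member at 339 bp downstream that ranked 5728, 8733 and 3055. Replicate 3 ranked both of these higher than the other libraries did. vari, a septate junction scaffold gene, ranked 3309 and 14373 in replicates 1 and 2 and was not listed in replicate 3. AhcyL1, red, CG8654, CG6163 and CG13907 were in all 3 lists and ranked worst in replicate 3, between 6121 and 15778, and CG10211 was in replicates 1 and 2 only.

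The 6 members with the best worst rank over the 3 libraries had pooled scores of 90.28 to 169.8, all above the median of the members. The member in a coding exon of CG33229 had the lowest pooled score of these, 90.28, and the pooled rank 10978, and the replicate regions it overlapped ranked 3749, 3791 and 2537. Myd88, the adaptor of the Toll pathway, ranked 3576, 2005 and 3996 with its summit 91 bp upstream of the start. CG31729 ranked 4171, 3458 and 813. Su(dx), which encodes a Nedd4-family ubiquitin ligase that acts on Notch, held 2 members, 368 bp downstream of one start and 116 bp upstream of another. Both overlapped the same replicate regions, with ranks of 4067, 4262 and 3575, so they are not separate measurements. The members at CG33229 and Myd88 likewise shared their regions of replicates 1 and 2 with a higher-scoring neighbour. The pooled scores of these neighbours were 142.7 at CG33229 and 160.8 at Myd88. Ack-like, a non-receptor tyrosine kinase gene, ranked 3445, 2799 and 4518.

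At the low end, CG32407 carried the lowest pooled score of the members, 40.93, and was in all 3 lists at ranks 9751, 13156 and 5906. It overlapped another CG32407 member, with a pooled score of 129.7, that was matched at the same ranks. The listing is therefore not separate support for the lowest-scoring member. Nha2 and CG5455 were in 2 lists each. The members at the edge of the promoter window, at E(spl)mgamma-HLH (a Notch-responsive repressor gene), CG33278 and CG7573, were each in 1 list and all lay in coding exons.

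Counted by gene, 3072 of 13968 protein-coding genes on the arms had a weak promoter region at any start. Of these, 435 also carried an IDR summit at a promoter (an IDR promoter summit), and 2637 had a weak promoter region only, which is 18.9% of all genes. IDR promoter summits were present at 1820 genes, 13% of all, and 9511 genes had neither. Among the genes with a weak promoter region only, 367 (13.9%) had an IDR summit elsewhere in the gene body. Genes with more annotated starts cover more bases, and the mean number of starts was 2.11 for genes with an IDR promoter summit, 1.63 for those with a weak promoter region only and 1.21 for those with neither. Gene length and start number were not adjusted for in any count.

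The genes with the most members had many alternative starts. Acsl, which encodes a long-chain acyl-CoA synthetase, had 8 members over 7 start positions, with pooled scores of 43.15 to 107.9. C3G (an exchange factor for Rap1), Dys (dystrophin), mtd and sdt (a scaffold of the apical Crumbs complex) had 6 members each. Neighbouring members again shared replicate regions: both members of Acsl near its start farthest along the arm, with scores of 107.9 and 51.25, overlapped the region ranked 3733 in replicate 3 and none in the other lists. In sdt, the highest-scoring member (145.9) was in replicates 1 and 3 at ranks 3205 and 5269. In Dys, the highest-scoring member (132.4) lay 282 bp upstream of an internal start and ranked 11617, 12810 and 5925. In total 919 genes had at least 2 members and 257 at least 3.

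Gene groups were read against the 18.9% of all genes with a weak promoter region only. Cuticle protein genes had one in 25 of 115 (21.7%, 14.6 to 30.4) and chemosensory receptor genes in 25 of 180 (13.9%, 9.19 to 19.8), and no gene of either list had an IDR promoter summit. Cytosolic ribosomal protein genes had a weak promoter region only in 13 of 93 (14.0%), beside 46 with an IDR promoter summit. Oxidative phosphorylation genes had one in 14 of 91 (15.4%), beside 2 with an IDR promoter summit. For each of these 4 lists the binomial interval of the share includes the share of all genes, and no list was tested.

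The pooled shares hid a difference between libraries. In the replicates' own lists, cytosolic ribosomal protein genes with a weak promoter region only made up 31.2%, 28.0% and 8.60% (22.6% ± 12.2, SD, n = 3), oxidative phosphorylation genes 30.8%, 35.2% and 14.3%, and signalling genes 38.2%, 40.0% and 9.09%. Over all protein-coding genes the shares were 24.5%, 27.9% and 17.7% (23.4% ± 5.22). Replicate 3 was thus the lowest for these 3 lists and for all genes. Chemosensory receptor genes went the other way, with 7.22%, 5% and 23.9% (12.04% ± 10.3), and cuticle protein genes stood at 17.4%, 20.9% and 27.0%. Relative to all genes, ribosomal protein genes were above the share in replicate 1, level with it in replicate 2 and below it in replicate 3, and chemosensory receptor genes were below it in replicates 1 and 2 and above it in replicate 3. The spread between replicates therefore exceeded the distance of either pooled share from that of all genes.

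**Figure D5:**
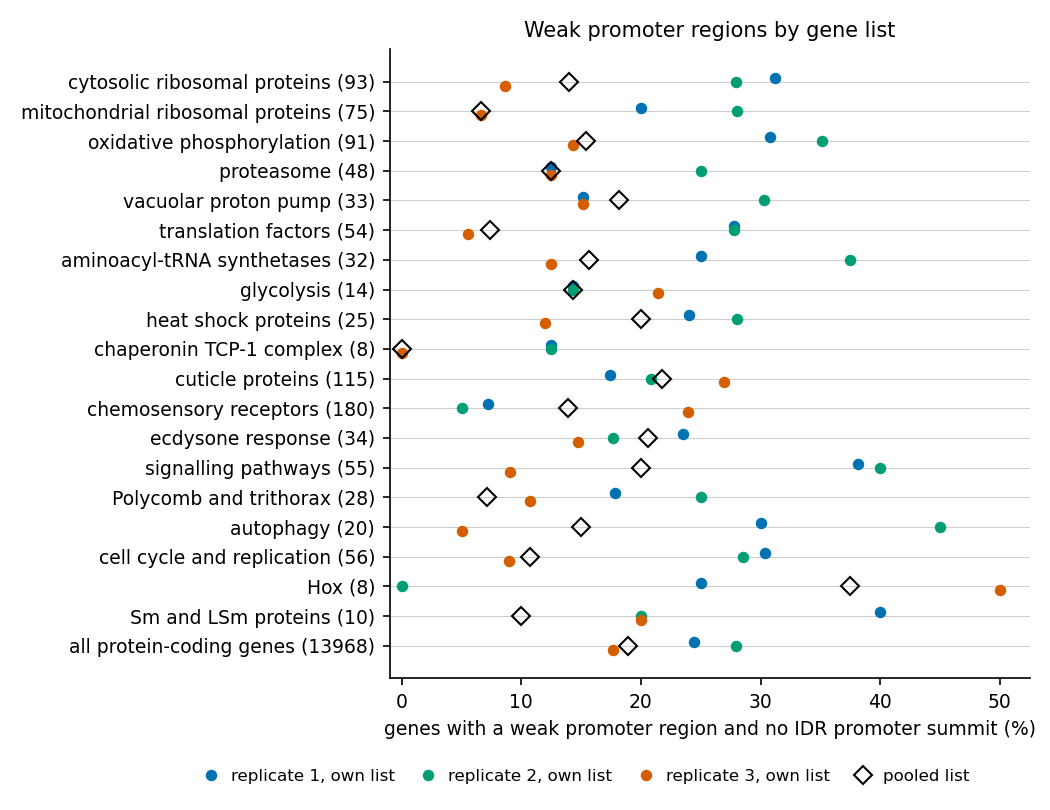
Percentage of the genes of each list with a weak promoter region and no IDR promoter summit (horizontal axis) for 19 gene lists and all protein-coding genes, with the number of genes in parentheses. Points are the 3 replicates' own lists and diamonds the pooled list, with cytosolic ribosomal proteins at 31.2%, 28.0% and 8.60% and chemosensory receptors at 7.22%, 5% and 23.9% in replicates 1, 2 and 3.

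The highest-scoring members at ribosomal protein genes, RpL37-1, RpS3 and RpS6, had pooled scores of 173.4, 171.2 and 161.8, and all 3 were listed in replicates 1 and 2 and not in replicate 3. Over the whole list, 7 of 93 ribosomal protein genes (7.53%) had a member listed in replicates 1 and 2 alone, near the 6.801% of all protein-coding genes, so the highest-scoring members do not stand for the list. Of the chemosensory receptor genes, 13 of 180 (7.22%) had a member listed in replicate 3 alone and 2 (1.11%) one listed in replicates 1 and 2 alone, where all protein-coding genes had 2.76% and 6.801%. The member at Gr64a, a sugar receptor gene, was in replicate 3 only, at rank 4148, and also lay within 500 bp of a CG11594 start. Gr77a was in all 3 lists at ranks 5455, 10268 and 4703, and Ir25a, which encodes an ionotropic co-receptor, was in replicates 2 and 3.

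Energy and protein turnover genes had members in a minority. In oxidative phosphorylation, ND-51 (a complex I subunit) ranked 3130, 18552 and 5367, cype (a cytochrome c oxidase subunit) 13346, 8148 and 4024, and blw (the alpha subunit of ATP synthase) 11403, 10458 and 2389. All 3 were listed in every replicate but in a different order of rank. The start nearest to the cype member was that of Ncoa6, and the ND-51 member also lay within 500 bp of a CG13994 start. Proteasome genes had a weak promoter region only in 6 of 48 (12.5%), among them Rpn8 and Rpn5 of the regulatory particle lid, which ranked 3458 and 2556 in replicate 3. The starts nearest to these summits were those of Slik and Hat1, with the proteasome genes also within 500 bp. Vacuolar proton pump genes had one in 6 of 33 (18.2%), among them Vha68-2 with ranks of 7119, 26403 and 3008. Mitochondrial ribosomal protein genes had one in 5 of 75 (6.67%, 2.20 to 14.9) and translation factors in 4 of 54 (7.41%, 2.06 to 17.9), and both intervals lie below the 18.9% of all genes. A gene with an IDR promoter summit cannot count here, and 13.3% of the former and 24.1% of the latter had one, against 13.0% of all genes. These lists were picked out of 19 and not tested. In the replicates' own lists these shares were 20%, 28% and 6.67% for the former and 27.8%, 27.8% and 5.56% for the latter, and replicate 3 was the lowest for both. All protein-coding genes had 24.5%, 27.9% and 17.7%, so translation factors were not below all genes by much in replicates 1 and 2. The share was 5 of 32 (15.6%) for aminoacyl-tRNA synthetases, 2 of 14 for glycolysis, and 1 of 10 for Sm and LSm proteins, namely SNRPG. The glycolysis list lacks PyK, which its choice by symbol missed. The start nearest to the SNRPG member was that of mthl1. The 8 genes of the chaperonin TCP-1 complex had none. At glycolytic genes the 3 highest-scoring members, at Hex-A, Tpi and Ald1, all accompanied an IDR promoter summit at the same gene. Such a summit was present at 7 of the 14 genes of that list (50%), against 13.0% of all genes.

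Regulatory genes of the prepupal stage had members as well. Ecdysone response genes, which answer the steroid hormone that drives metamorphosis, had a weak promoter region only in 7 of 34 (20.6%, 8.70 to 37.9). This share is near the 18.9% of all genes. Another 16 had an IDR promoter summit (47.1%, against 13.0% of all genes). crol, a zinc finger gene induced by ecdysone, had a member 37 bp upstream of a start that ranked 3617, 7177 and 5813. Blimp-1, an ecdysone-induced repressor that times prepupal development, ranked 4248, 6824 and 8015. Eip78C, an ecdysone-induced nuclear receptor gene, ranked 4753 and 2018 in replicates 1 and 2 and was not listed in replicate 3. The first pair was therefore present in every library and Eip78C was not.

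Signalling genes had a weak promoter region only in 11 of 55 (20%), heat shock protein genes in 5 of 25 (20%), autophagy genes in 3 of 20, cell cycle and replication genes in 6 of 56 (10.7%), and Polycomb and trithorax genes in 2 of 28. The highest-scoring signalling members, at sd, sgg and shn, sat at genes that also had an IDR promoter summit, as did those at kis, lolal and jing and at CycG, E2f1 and Dp. An IDR promoter summit was present at 21 of 55 signalling genes (38.2%) and 8 of 28 Polycomb and trithorax genes (28.6%). Cell cycle and replication genes had one in 5 of 56 (8.93%), and all genes in 13.0%. These members were picked by score and do not stand for their lists. At Hsc70-3, the endoplasmic reticulum chaperone BiP, the member ranked 4751 and 3481 in replicates 1 and 2 and was not listed in replicate 3, and at the small heat shock gene Hsp23 it ranked 3266, 5193 and 11287. Atg8a, a ubiquitin-like autophagy gene, was listed in replicate 2 only, at rank 1805. Of the Hox genes, which set segment identity, 3 of 8 had a weak promoter region only and 0 had an IDR promoter summit. abd-A was listed in replicates 1 and 3, Abd-B in replicate 3 and pb in replicates 1 and 3, so none of the 3 was in replicate 2. With 8 genes the exact interval of this share runs from 8.52% to 75.5%.

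Over the 52 highest-scoring members of these lists, 26 (50%) were in all 3 replicates, against 35.5% of all members. These 52 were picked by pooled score, and listing in all 3 was more frequent at higher scores. It was 61.0% of all members between ranks 4823 and 7500 and 9.70% between ranks 25001 and 30000. The comparison with all members therefore says nothing about the lists. Of the 52, 19 (36.5%) were absent from replicate 3. Over all members the share absent from replicate 3 was 36.7% (1453), about the same. The tagged gene CG16779 had no member at its start. It held 13 pooled summits within the gene body, and its promoter had neither a weak region nor an IDR summit.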

How the data were processed

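Peak lists on dm6 were used, and lists on dm3 were not used here. The deposited score of each region was set by the authors and its scale differs between lists. Per the deposited file listings, each replicate list derives from the alignments of that library and 1 further file, the pooled list from the alignments of all 3 libraries and that file, and the IDR set from these lists. Aligner, peak caller and threshold: not given in the sources used here. Control libraries were not analysed here. Per the labels, chromatin was sonicated to 200 to 800 bp.

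The 3 replicates form 1 group, per the labels. Read depth is unknown. Starts and exons came from Ensembl release 115 without transposable elements, and sequence from the RefSeq copy of the same assembly. Only the chromosome arms, X and Y included, were kept. A region was listed in a replicate when at least 1 bp overlapped, and it took the rank and summit of the best-ranked overlapping region. Members in a replicate's own list follow the same rule against the same IDR set. Intervals are exact (Clopper-Pearson) 95% binomial intervals, which cover counting error over regions, starts or genes only; these are not independent replicates. Differences in motif shares and in the downstream share between kinds of regions were compared over the 3 replicates. The test was an exact two-sided sign-flip permutation test, which cannot go below p = 0.25. Motifs were exact words on either strand within 100 bp of a summit or start. A gene had a weak promoter region only when no IDR summit lay within 500 bp of any of its protein-coding starts.

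The members, motifs and 19 gene lists (chosen by symbol) were chosen with earlier results of these data known, so they are not independent evidence. Genes were named by rule: the 12 highest and 3 lowest pooled scores, the 6 best worst ranks over replicates, 3 regions on each side of the 500 bp limit, the 3 highest-scoring members per list, the 5 genes with most members, and CG16779. Printed windows are the highest- and lowest-scoring exon-free ones outside arm 2R, plus 5 picked for a motif. Alternatives were other windows, distances, start sites, scores and overlaps, and leaving out each replicate. The classification and counts were tested on simulated data. Python 3.11.15, numpy 2.4.6, pandas 2.3.3, scipy 1.17.1 and matplotlib 3.10.9 were used.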

Additional observations from a re-analysis of the deposited data

How the results depend on the processing

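The downstream share of member summits, 44.5%, moved by less than the spread between replicates under all 9 alternatives (40.8% to 48.2%). The count of 3964 members stayed within 1.5 times under the 6 alternatives of window, distance, start sites and score (2670 to 5761), and was 1734 to 2476 when each replicate was left out in turn, by requiring both others to list the member. The share of weak regions at promoters, 16.6%, became 11.7% with a 250 bp window, 11.9% with canonical transcripts, 24.1% with 1000 bp, 22.4% with the upper part of the weak scores, and 17.2% to 21.9% without each replicate. The share of members in all 3 lists, 35.5%, became 33.7% with a 1000 bp window, 33.0% with canonical transcripts, 46.0% with the upper scores, 24.2% when at least 50% of the region had to be covered, and 13.7% when replicate summits had to lie within 100 bp. Leaving out a replicate gives no value for it. The GAGAG share, 35.3%, became 36.9% with a 250 bp window, 33.4% with 1000 bp, 33.9% with canonical transcripts, 38.2% with the upper scores, 20.1% and 45.7% with 50 and 150 bp of sequence on either side, and 37.8% to 38.4% without each replicate. TATCGATA, 1.39%, became 0.706% and 1.84% with 50 and 150 bp of sequence. Genes with a weak promoter region only, 18.9%, became 15.2% with a 250 bp window, 22.6% with 1000 bp, 18.0% at 1000 bp from IDR summits, 13.6% with the upper scores, and 8.12% to 11.6% without each replicate. By construction, shorter sequence windows hold fewer words, and requiring 2 lists or upper scores leaves fewer members. Other promoter windows and canonical transcripts also change, by construction, the bases that count as promoter. The matching share of bases is not given for them. The cause of the other changes was not tested. The labels define 1 group, so no replicate numbers are shared between groups. With no read counts, a region missing from a list is not detectable at an unknown depth rather than absent.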
